A study of Mus musculus with 6 samples.

Results

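The genes described here encode the subunits of oxidative phosphorylation, in the nuclear and the mitochondrial genome. They were taken by gene name from the deposited table, by names beginning with Nduf and a subunit letter and number, Sdha to Sdhd, Uqcr, Cyc1, Cox4 to Cox8, Atp5, or the mt- prefix with Nd, Co, Cy or At. This gave 105 of 56980 genes, 92 of them nuclear and 13 mitochondrially encoded, after 14 names marked as pseudogenes with -ps had been left out. RNA was sequenced from the lungs of NSG mice, an immunodeficient strain without mature T, B and natural killer cells, 5 weeks after orthotopic injection of human breast cancer cells into the mammary fat pad. The Ctrl group (n = 3) had received unmodified MDA-MB-231 cells, a line derived from human triple-negative breast cancer, while the cells given to the DPP3_KO group (n = 3) were MDA-MB-231 in which DPP3 was knocked out, so every host carried a tumour and the mouse genome itself was not altered. The labels give no age, do not say whether the knockout line is 1 clone and do not say that each replicate is a separate mouse, so the p-values cover only the spread among the 6 libraries, which may be technical. The title of the third Ctrl library carries 232 where the others carry 231, and it was kept in its labelled group. The design text asks how DPP3 secreted in exosomes by the tumour bears on lung metastasis. The comparison below asks how the respiratory chain transcripts of the host lung differed between the groups.

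Oxidative phosphorylation passes electrons from NADH through complex I, or from succinate through complex II, to ubiquinone, complex III, cytochrome c and complex IV, which reduces oxygen. Complexes I, III and IV pump protons, and complex V, the ATP synthase, uses their return to make ATP. Complex II is wholly encoded in the nucleus, while the others join nuclear subunits to a hydrophobic core made inside the mitochondrion. Several complex IV subunits exist as tissue-specific isoforms, with a widespread form and another in heart and skeletal muscle (Cox6a2, Cox7a1, Cox8b), lung (Cox4i2) or testis (Cox6b2, Cox7b2, Cox8c).

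Each library summed to the same total TPM (a relative level that allows for transcript length), so the depth is unknown, and 22904 to 24477 genes lay above 0. The club cell gene Scgb1a1 alone took 7.16 to 10.1% of TPM in Ctrl and 21.7 to 28.7% in DPP3_KO, which lowers the TPM of other genes. The median log2 change over the genes averaging at least 1 TPM (15650) was -0.60 as deposited. It was -0.02 after median-of-ratios scaling, which sets the typical gene of each library to the same level, and the changes of called genes and of summed levels are therefore given on both scales. The markers of alveolar type 2 cells, a type of lung epithelium, summed to 51861, 42219 and 28119 TPM in Ctrl and to 31924, 19657 and 26311 in DPP3_KO. The capillary endothelium markers summed to 2502 to 3141 TPM in Ctrl and 622 to 1183 in DPP3_KO. Neutrophil markers summed to 4082.5, 7223 and 53043 TPM in Ctrl and to 1668, 34884 and 15322 in DPP3_KO. Those of alveolar macrophages summed to 2970, 2441 and 4162 TPM in Ctrl and to 349, 2047 and 644 in DPP3_KO. In bulk lung, fewer cells of a type and less RNA per cell cannot be told apart.

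Of the 105 genes, 98 passed the filter of 1 TPM on the mean of all 6 libraries, 85 of them nuclear. The other 7 were listed at 0 in every library. They were the testis forms Cox8c and Cox7b2, the entries Cox6c2, Ndufb11b, Ndufa11b and Ndufs6b, and a second entry named Atp5o. As deposited, 4 of the 98 rose in DPP3_KO (1.38% of all genes tested were higher) and 2 fell (34.0% were lower; limma, Benjamini-Hochberg adjusted p below 0.05 over 15650 genes). The median log2 change of the 98 was -0.03, against -0.60 for all genes, and 93 of them lay above that all-gene median. After median-of-ratios scaling 9 were higher (1.94% of all genes) and 0 lower (0.888%), with a median of 0.63 against -0.02. At an unadjusted limma p below 0.05 there were 57 higher and 0 lower, beside 3617 of all 15650 genes in either direction. Of the 9, 3 had also been called as deposited. The 3 were the heart and muscle isoforms Cox6a2, Cox7a1 and Cox8b. Markers of ciliated cells moved with the higher scaled levels, with 7 of 10 higher as deposited and 8 after scaling, and summed to 318 to 451 TPM in Ctrl and 757 to 829 in DPP3_KO; their part in the result was not tested. After removing each library's trend with gene length as well, the median of the members was 0.33, 4 were higher (1.16% of all genes) and 0 lower (0.613%). At an unadjusted limma p below 0.05 the counts were 39 and 1, beside 3214 of all 15650 genes in either direction. The 4 called higher were Cox6a2, Cox7a1, Uqcrh and Atp5g1, and Cox8b stood at 1.81 with adjusted p = 0.0584. The direction of the typical subunit gene thus turned with the scaling, since 45 of 98 lay above 0 as deposited and 96 of 98 after median-of-ratios scaling. By complex, the nuclear medians as deposited were -0.10 for I, -0.21 for II, -0.01 for III, -0.02 for IV and -0.10 for V, against 0.25 for the 13 mitochondrially encoded genes. After scaling they were 0.56, 0.45, 0.65, 0.64 and 0.56, against 0.92.

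**Figure D1:**
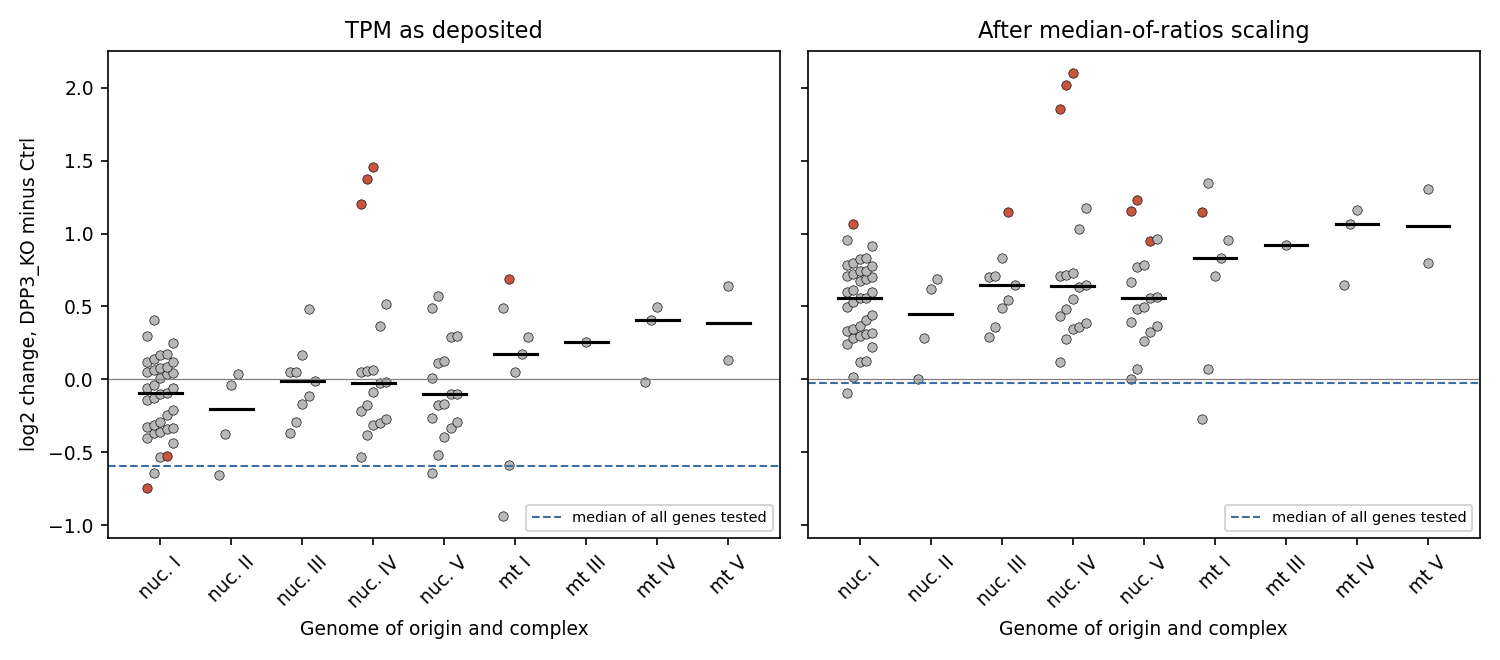
Log2 change on log2(TPM + 1), DPP3_KO minus Ctrl, of each tested subunit gene by complex and genome of origin, first as deposited, then with median-of-ratios scaling; each point is a gene, red where adjusted p was below 0.05, black bars are medians and the dashed line is the median of all genes tested. The 98 genes have a median of -0.03 as deposited and 0.63 after scaling, and Cox6a2, Cox7a1 and Cox8b stand above the rest on both scales.

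The heart and muscle forms of 3 complex IV subunits rose in DPP3_KO lungs on both scales, and each stood higher in all DPP3_KO than in all Ctrl libraries. Cox6a2 (ENSMUSG00000030785), the heart form of subunit VIa, lay at 42.8, 36.1 and 36.7 TPM in Ctrl replicates 1 to 3 and at 84.0, 95.8 and 89.5 in DPP3_KO. This was 2.33-fold, a log2 change of 1.20 ± 0.16 (SE, limma adjusted p = 0.0145) (1.85 once scaled by median of ratios, adjusted p = 0.0100). The groups did not overlap, and the libraries within each group were close together. Cox7a1 (ENSMUSG00000074218), the heart form of subunit VIIa, lay at 30.5, 24.1 and 15.6 TPM in Ctrl and at 56.4, 67.4 and 68.2 in DPP3_KO. Its log2 change was 1.46 ± 0.26 (adjusted p = 0.0156) and 2.10 after scaling (adjusted p = 0.0156). Cox8b (ENSMUSG00000025488), the heart form of subunit VIII, lay at 34.5, 28.0 and 14.2 TPM in Ctrl and at 76.7, 59.4 and 57.1 in DPP3_KO. Its log2 change was 1.38 ± 0.33 (adjusted p = 0.0227) and 2.02 after scaling (adjusted p = 0.0271). The third Ctrl library was the lowest for Cox7a1 and Cox8b.

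The widespread partners of these isoforms did not pass on either scale. Cox6a1 lay at 509.5, 492.9 and 378.5 TPM in Ctrl and at 454.2, 338.7 and 582.7 in DPP3_KO. Cox7a2 lay at 165.6, 155.5 and 146.2 TPM in Ctrl and at 119.3, 114.7 and 147.2 in DPP3_KO. Cox8a lay at 453.5, 424.7 and 403.6 TPM in Ctrl and at 379.6, 447.6 and 506.9 in DPP3_KO. Their groups overlapped in each case, and the muscle forms remained the minor partner in every library. Cox7a1 made up 9.62 to 15.5% of its pair in Ctrl and 31.7 to 37.0% in DPP3_KO, Cox6a2 6.83 to 8.83% and 13.3 to 22.0%, and Cox8b 3.39 to 7.08% and 10.1 to 16.8%. A ratio within a library nearly cancels its scaling. The log2 ratios were higher in DPP3_KO by 1.76 for Cox7a1 to Cox7a2, 1.23 for Cox6a2 to Cox6a1 and 1.33 for Cox8b to Cox8a. None of the 3 overlapped between groups, and each had p = 0.1 in an exact two-sided permutation test, the smallest that 3 against 3 libraries allow (Benjamini-Hochberg adjusted p = 0.325 over 13 such tests).

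**Figure D2:**
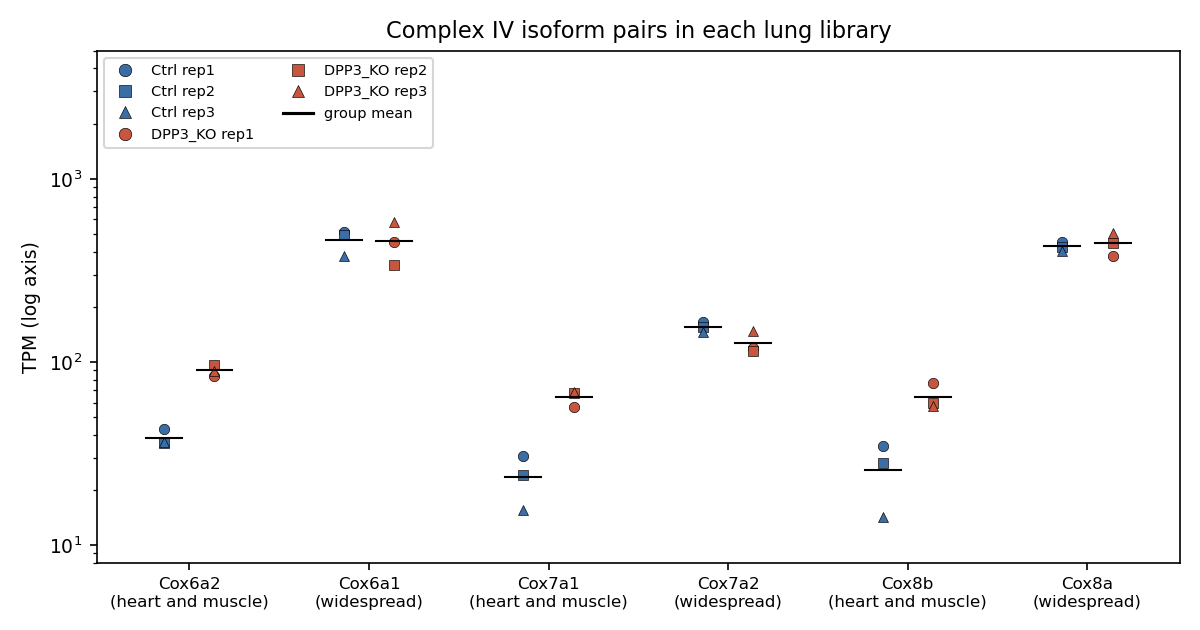
TPM of each muscle-type complex IV isoform and its widespread partner in the 6 libraries, on a log axis; points are libraries, with Ctrl in blue and DPP3_KO in red, and bars are group means. Cox6a2, Cox7a1 and Cox8b lie higher in all 3 DPP3_KO libraries, while the partners Cox6a1, Cox7a2 and Cox8a overlap.

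Markers of heart muscle moved with these isoforms. Of 15 cardiomyocyte genes tested, 9 rose on both scales, beside 1.38% of all genes as deposited and 1.94% after scaling. The median of the 15 was 1.57 on the deposited log2 scale, against -0.60 for all genes. The 9 included the cardiac troponin gene Tnnt2, at 165.8, 122.5 and 128.0 TPM in Ctrl and 373.4, 498.9 and 389.0 in DPP3_KO. The list summed to 1269, 1020 and 625 TPM in Ctrl and to 2543, 2748 and 2417 in DPP3_KO. Set against 100 TPM of that sum, Cox7a1 stood at 2.40, 2.36 and 2.49 in Ctrl and at 2.22, 2.45 and 2.82 in DPP3_KO, so the groups overlapped. Cox8b stood at 2.72, 2.74 and 2.26 in Ctrl and at 3.02, 2.16 and 2.36 in DPP3_KO. Cox6a2 stood at 3.37, 3.54 and 5.87 in Ctrl and at 3.30, 3.48 and 3.70 in DPP3_KO. The part of heart tissue in the result was not tested. The 8 smooth muscle markers had a median log2 change of 0.78 as deposited and 1.42 after scaling. Lmod1 was called higher as deposited, and Lmod1 and Synpo2 after scaling, beside 1.38% and 1.94% of all genes. Their list summed to 600, 524 and 174 TPM in Ctrl and to 939, 615 and 432 in DPP3_KO, so the groups overlapped. The part of smooth muscle was not tested either. The skeletal muscle list summed to 11.7 to 25.5 TPM, with Pvalb at 0 in every library. Of its 5 genes tested none was called as deposited, and Tnnt3, a fast troponin gene, was higher after scaling (1.35, adjusted p = 0.0480), from 1.74 to 4.18 TPM in Ctrl and 4.81 to 6.45 in DPP3_KO as deposited. Of the brown fat markers, Zic1 was at 0 in every library and Ucp1 at or below 0.70 TPM, while Cidea, a lipid droplet protein gene, rose from 1.53, 2.20 and 2.36 TPM in Ctrl to 5.37, 6.57 and 6.09 in DPP3_KO (1.22, limma adjusted p = 0.0157, and 1.72 after scaling, adjusted p = 0.0143). Only 2 of the 7 brown fat genes passed the filter, Cidea and Kcnk3. Their median log2 change was 0.46 as deposited and 1.00 after scaling, and Kcnk3 was called on neither scale. The brown fat list summed to 10.3 to 16.1 TPM, and its part in the result was not tested.

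The promoters of a muscle form and its widespread partner are shown for the Cox7a1 and Cox8b pairs, whose letters differ in CpG density, and Cox6a2 is named only. They are RefSeq windows of 300 bases, from 250 before to 50 after the start of the gene, on build GRCm38.p6, with each CpG in capitals. Cox7a1 is at chr7:30183921-30184220 on the plus strand, Cox7a2 at chr9:79759804-79760103, Cox8b at chr7:140900397-140900696 and Cox8a at chr19:7217567-7217866, all 3 on the minus strand.
Cox7a1: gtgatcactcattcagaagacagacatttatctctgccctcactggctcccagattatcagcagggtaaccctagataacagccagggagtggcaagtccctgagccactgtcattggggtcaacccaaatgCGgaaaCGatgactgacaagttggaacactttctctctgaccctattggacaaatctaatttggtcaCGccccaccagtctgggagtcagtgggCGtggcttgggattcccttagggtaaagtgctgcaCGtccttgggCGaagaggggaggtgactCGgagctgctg
Cox7a2: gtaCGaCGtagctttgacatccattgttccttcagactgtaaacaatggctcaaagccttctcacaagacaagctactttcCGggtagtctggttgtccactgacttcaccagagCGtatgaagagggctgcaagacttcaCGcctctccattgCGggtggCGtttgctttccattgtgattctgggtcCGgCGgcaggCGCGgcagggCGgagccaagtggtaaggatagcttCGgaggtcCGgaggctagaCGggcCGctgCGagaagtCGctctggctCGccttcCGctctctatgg
Cox8b: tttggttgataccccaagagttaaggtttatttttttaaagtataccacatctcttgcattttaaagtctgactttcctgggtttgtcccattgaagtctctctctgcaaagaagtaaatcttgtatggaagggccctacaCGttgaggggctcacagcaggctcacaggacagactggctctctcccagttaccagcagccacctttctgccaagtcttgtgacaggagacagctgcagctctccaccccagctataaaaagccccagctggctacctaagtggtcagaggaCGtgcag
Cox8a: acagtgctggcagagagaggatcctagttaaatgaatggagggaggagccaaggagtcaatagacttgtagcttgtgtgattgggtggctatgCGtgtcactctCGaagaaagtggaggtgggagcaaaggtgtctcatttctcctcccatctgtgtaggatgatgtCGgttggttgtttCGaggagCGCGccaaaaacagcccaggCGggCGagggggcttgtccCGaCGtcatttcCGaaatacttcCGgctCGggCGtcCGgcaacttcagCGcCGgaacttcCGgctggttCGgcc
Cox7a1 holds 7 CpG and its partner Cox7a2 holds 20, and Cox8b holds 2 and its partner Cox8a 19. The median was 19 over the 69 member promoters that matched and 7 over 27025 promoters. The letters TATAAA, searched on both strands, occurred in 8 of the 69 (11.6%, against 14.2% of all promoters), Cox8b among them. CCGGAAG occurred in 16 of the 69 (23.2%, against 9.12%) and AAGATGGC in 9 (13.0%, against 2.88%). These matches describe the letters of the windows and were not tested against the changes.

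The other tissue-restricted forms overlapped between the groups and varied widely between libraries. Cox4i2, the lung form of subunit IV, lay at 75.9, 54.7 and 37.9 TPM in Ctrl and at 58.5, 23.5 and 36.9 in DPP3_KO. Its widespread partner Cox4i1, the most abundant nuclear complex IV gene, lay at 533.2, 518.9 and 457.3 TPM in Ctrl and at 641.5, 680.8 and 846.5 in DPP3_KO. Cox4i1 did not overlap between groups but missed the threshold (log2 change 0.51 ± 0.18, limma adjusted p = 0.0608, and 1.18 after scaling, adjusted p = 0.0523). The log2 ratio of Cox4i2 to Cox4i1 differed by -1.05 (exact permutation p = 0.2). Ndufa4l2, a paralog of Ndufa4 that is induced under hypoxia and is counted here with complex IV, lay at 30.8, 23.6 and 12.6 TPM in Ctrl and at 25.2, 11.1 and 27.3 in DPP3_KO. Its ratio to Ndufa4 differed by -0.07 (exact permutation p = 0.8). Cox6b2, best known from testis, lay at 90.4, 63.7 and 31.4 TPM in Ctrl and at 64.2, 29.9 and 59.3 in DPP3_KO. The spermatid genes Prm1, Prm2 and Tnp1 were at 0 in every library. The pericyte markers summed to 317, 341 and 158 TPM in Ctrl and to 160, 77.0 and 88.2 in DPP3_KO, with 4 of 9 lower as deposited, beside 34.0% of all genes, and 0 after scaling (limma). Set against 100 TPM of the pericyte sum, Cox4i2 stood at 23.9, 16.1 and 23.9 in Ctrl and at 36.7, 30.5 and 41.8 in DPP3_KO. Cox6b2 stood at 28.5, 18.7 and 19.9 in Ctrl and at 40.2, 38.8 and 67.3 in DPP3_KO. Ndufa4l2 stood at 9.71, 6.94 and 7.98 in Ctrl and at 15.8, 14.4 and 30.9 in DPP3_KO. These ratios did not overlap between the groups. The part of pericytes in the levels of these isoforms was not tested.

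**Figure D3:**
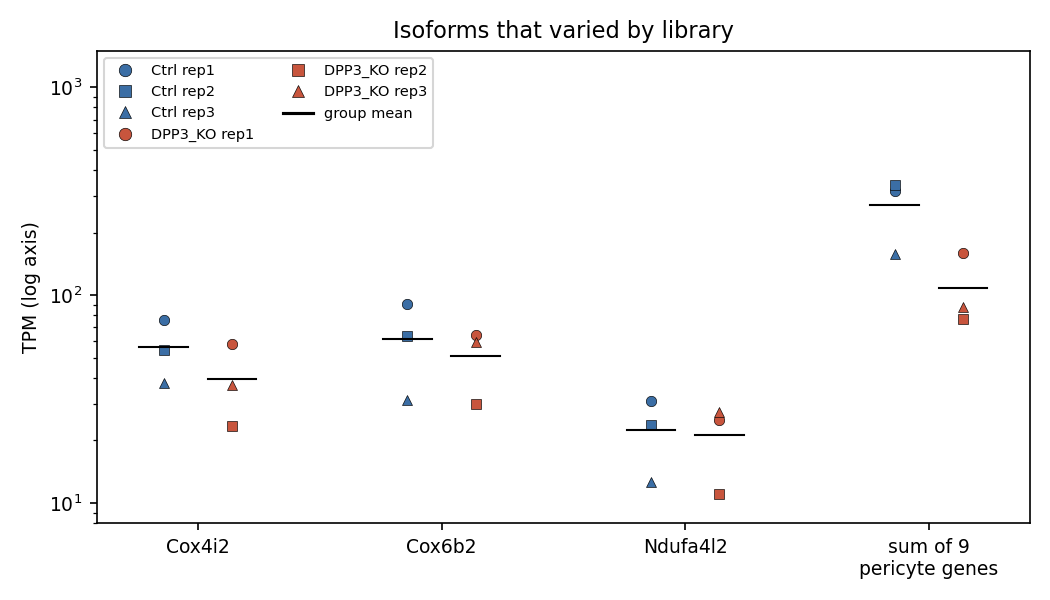
TPM of Cox4i2, Cox6b2 and Ndufa4l2, and of the sum of 9 pericyte genes in each of the 6 libraries, on a log axis; points are libraries and bars are group means. The groups overlap for all 3 genes, and Cox4i2 ranges from 23.5 to 75.9 TPM.

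The remaining nuclear complex IV genes, which stabilise the mitochondrially encoded core and tune its activity, did not pass on either scale. Cox5a had the next highest log2 change (0.37), from 188, 153 and 158 TPM in Ctrl to 177, 245 and 225 in DPP3_KO. Cox5b had -0.31, Cox6b1 -0.18, Cox6c 0.07, Cox7a2l -0.38, Cox7b -0.27, Cox7c 0.06 and Ndufa4 -0.02. The entries of Cox7c and Cox7a2l held 62.5% and 60.4% of the joint level with near-identical pseudogene copies, so their own levels are uncertain. With copies added by length, Cox7c stood at 1.28-fold, with every DPP3_KO above every Ctrl library. Cox7a2l then stood at 0.93-fold and its groups overlapped. The summed level of nuclear complex IV was 4258, 3985 and 3429 TPM in Ctrl and 3876, 3868 and 4680 in DPP3_KO, and the groups overlapped (log2 difference 0.09, exact permutation p = 0.6). After median-of-ratios scaling the difference was 0.75 and the groups did not overlap (exact permutation p = 0.1, the smallest possible).

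Complex I, the NADH dehydrogenase, held both nuclear genes that fell as deposited. Ndufs8 (ENSMUSG00000059734), a core iron-sulphur subunit, lay at 121.8, 103.1 and 83.1 TPM in Ctrl and at 58.0, 59.1 and 63.3 in DPP3_KO. Its log2 change was -0.75 ± 0.19 (limma adjusted p = 0.0257), and -0.09 after scaling (adjusted p = 0.820). Ndufa9 (ENSMUSG00000000399), a subunit near the ubiquinone site, lay at 68.2, 65.4 and 55.2 TPM in Ctrl and at 47.3, 42.5 and 40.1 in DPP3_KO. Its log2 change was -0.53 ± 0.17 (adjusted p = 0.0466), and 0.12 after scaling (adjusted p = 0.674). The groups of both did not overlap as deposited, where the median over all genes was -0.60, and neither passed after scaling. Ndufa5 had the highest log2 change among the 37 nuclear complex I genes tested. It lay at 91.2, 92.9 and 71.5 TPM in Ctrl and at 113.1, 112.7 and 111.9 in DPP3_KO (log2 change 0.41, adjusted p = 0.0939) and passed after scaling (1.06, adjusted p = 0.0304). Levels within the complex ran from 20.2 TPM for Ndufb4 to 227 for Ndufa6, the most abundant. Ndufb4c, also a member by its name, is identical to Ndufb4 over 390 bases and lay at 173 to 189 TPM in Ctrl and at 207 to 255 in DPP3_KO, so the level of either gene alone is uncertain.

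Complex II, succinate dehydrogenase, was the only complex whose summed nuclear level did not overlap between groups as deposited. It summed to 355.5, 340.3 and 330.3 TPM in Ctrl and to 273.5, 299.0 and 268.9 in DPP3_KO, a log2 difference of -0.29 (exact permutation p = 0.1, adjusted p = 0.325). After median-of-ratios scaling the difference was 0.38, the opposite direction, and the groups again did not overlap (exact permutation p = 0.1). As deposited, 51.1% of all genes lay lower in every DPP3_KO than in every Ctrl library. Sdha, the flavoprotein subunit, had a log2 change of -0.65 (adjusted p = 0.0506) that became 0.00 after scaling. Sdhc, a membrane anchor, had the highest, at 0.04, and Sdhb, the iron-sulphur subunit and most abundant member, averaged 101 TPM.

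In complex III, Uqcrh, the hinge protein, lay at 372.4, 344.5 and 366.7 TPM in Ctrl and at 429.4, 528.0 and 570.3 in DPP3_KO. It did not pass as deposited (0.49, adjusted p = 0.0643) and rose after scaling (1.15, adjusted p = 0.0494). Uqcrc2, a core protein, had the lowest change at -0.37. In complex V, Atp5g1, a gene of the rotating c-ring, lay at 111.3, 104.9 and 77.4 TPM in Ctrl and at 138.1, 141.0 and 153.2 in DPP3_KO. It missed the threshold as deposited (0.57, adjusted p = 0.0525) and rose after scaling (1.23, adjusted p = 0.0336). Atp5mpl and Atp5md, small membrane subunits, also rose only after scaling (1.15, adjusted p = 0.0403, and 0.95, adjusted p = 0.0456). Atp5b, the catalytic beta subunit, was the most abundant nuclear member, at 669 TPM on average, and Atp5e had the lowest log2 change, -0.64. Atp5g2, another c-ring gene and the least abundant, held 1.98% of the joint level with its copies, mainly Gm10175, which is identical to it over 441 bases, so its level is uncertain. The summed levels of nuclear complexes I, III and V overlapped between groups, with log2 differences of -0.06, 0.10 and 0.05 as deposited. After median-of-ratios scaling the differences were 0.60, 0.76 and 0.72, and none of the 3 overlapped (exact permutation p = 0.1 each). The nuclear subunits as a whole took 1.57, 1.45 and 1.28% of TPM in Ctrl and 1.40, 1.40 and 1.58% in DPP3_KO (log2 difference 0.03, exact permutation p = 0.9). After that scaling their sum was higher in all DPP3_KO libraries, by 0.69 (exact permutation p = 0.1), so whether the nuclear sum differed turned on the scaling.

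**Figure D4:**
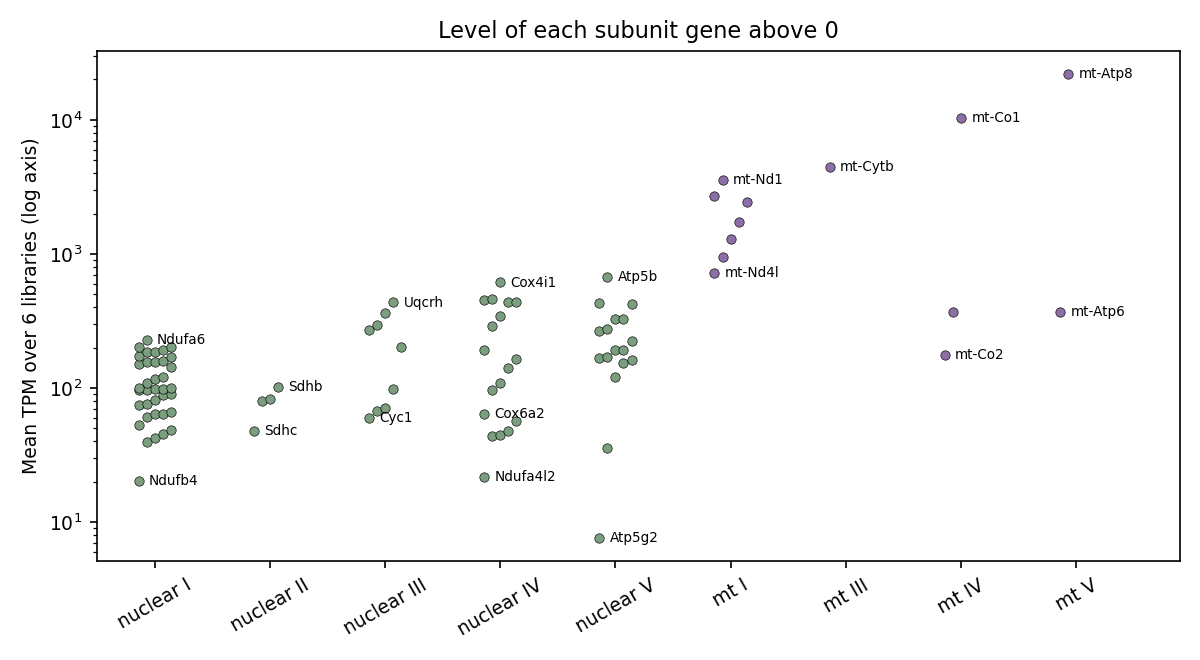
Mean TPM over the 6 libraries of each subunit gene above 0, by complex and genome of origin, on a log axis; each point is a gene. Nuclear genes range from 7.63 TPM for Atp5g2 to 669 for Atp5b, and mitochondrially encoded genes from 176 for mt-Co2 to 21974 for mt-Atp8.

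The mitochondrially encoded genes encode hydrophobic subunits of complexes I, III, IV and V. For several of them most of the signal lay in a pseudogene entry of near-identical sequence on chromosome 1. The gene and its copy are shown for 3 pairs, each over 60 bases of the coding strand from GENCODE release M21, with a mismatch in capitals.
mt-Co2: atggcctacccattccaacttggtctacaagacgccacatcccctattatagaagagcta
Gm28661: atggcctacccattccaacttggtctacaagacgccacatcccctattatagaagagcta
mt-Nd3: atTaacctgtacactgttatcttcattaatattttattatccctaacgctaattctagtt
Gm28438: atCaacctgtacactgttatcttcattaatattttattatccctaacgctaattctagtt
mt-Co1: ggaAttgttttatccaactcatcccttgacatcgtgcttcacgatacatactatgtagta
Gm29216: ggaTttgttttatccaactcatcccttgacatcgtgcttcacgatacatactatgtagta
Gm28661 matched mt-Co2 over 681 bases with 0 mismatches. Gm28438 matched mt-Nd3 over 345 bases with 1 mismatch, T3C, counted from the first base of the mt-Nd3 coding sequence. Gm29216 matched mt-Co1 over 483 bases with 1 mismatch, A1066T, counted likewise. Gm10925 and Gm28437 matched mt-Atp6 and mt-Co3 over 678 and 783 bases with 0 mismatches, and Gm10222 matched mt-Nd4l over 294 bases with 0. A read from these stretches that does not span a mismatch cannot be placed by its letters alone, so each gene is also given with its copies added by length, a choice made after the values were seen.

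The gene's own entry held 1.66% of the joint level for mt-Co2, 4.54% for mt-Co3, 5.35% for mt-Atp6, 14.2% for mt-Nd4l and 25.1% for mt-Nd3, against 95.0% for mt-Co1. With copies, mt-Co2, the copper-binding subunit of complex IV, lay at 8964, 9224 and 9069 TPM in Ctrl and at 12488, 12450 and 11584 in DPP3_KO. With copies, mt-Co3 lay at 6663, 6858 and 6765 TPM in Ctrl and at 9629, 10411 and 8407 in DPP3_KO. In both the DPP3_KO libraries were the higher, the groups did not overlap, and neither passed (log2 changes 0.42 and 0.48, limma adjusted p = 0.102 and 0.0786). mt-Nd3, a core subunit of complex I, had -0.59 (adjusted p = 0.144) on its own entry and 0.78 (adjusted p = 0.0230) with its copy. With its copy it lay at 2929, 2721 and 2620 TPM in Ctrl and at 4677, 5440 and 4170 in DPP3_KO. Counted with copies, 5 members rose (1.37% of all genes) and 2 fell (34.1%), and mt-Nd3 was the gene added. mt-Co1, the catalytic subunit of complex IV, lay at 8633, 9624 and 9491 TPM in Ctrl and at 12992, 13944 and 10775 in DPP3_KO with copies (0.44, adjusted p = 0.121). Its copy Gm29216 lay at 1971, 1917 and 2819 TPM in Ctrl but at 34.1, 15.4 and 3481 in DPP3_KO, so the split between gene and copy varied by library. With copies, mt-Atp6 lay at 6557, 6422 and 6428 TPM in Ctrl and at 7154, 7819 and 7010 in DPP3_KO.

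**Figure D5:**
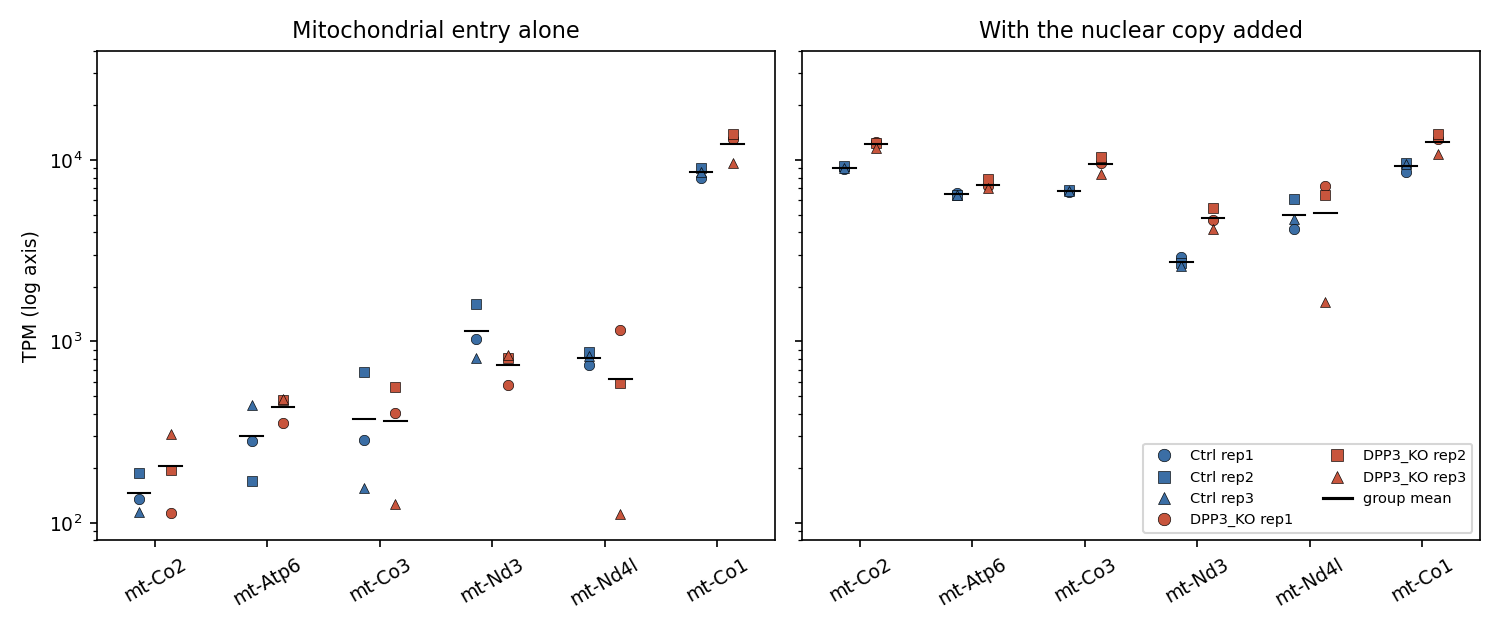
TPM, on a log axis, of 6 mitochondrially encoded genes in each of the 6 libraries, on their own entry (left) and with near-identical copies added by length (right); points are libraries and bars are group means. mt-Co2 moves from an average of 176 TPM to 8964 to 12488 with copies, and mt-Nd3 lies higher in all 3 DPP3_KO libraries only with its copy.

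Among the mitochondrially encoded genes not listed with a copy above, mt-Nd6 (ENSMUSG00000064368) was called as deposited. It encodes a complex I subunit on the other strand from the rest, and the strand setting of the counting is not given in the sources used here, so reads of opposite genes cannot be told apart. It lay at 1479, 1268 and 1219 TPM in Ctrl and at 1769, 2002 and 2685 in DPP3_KO (0.68 ± 0.22, adjusted p = 0.0452, and 1.35 after scaling, adjusted p = 0.0604). mt-Nd1 lay at 3247, 2943 and 2681 TPM in Ctrl and at 4195, 4386 and 3830 in DPP3_KO, and passed only after scaling (1.15, adjusted p = 0.0494). mt-Cytb, the complex III core subunit, and mt-Nd2, mt-Nd4 and mt-Nd5 of complex I had log2 changes of 0.25, 0.29, 0.17 and 0.05 and did not pass. mt-Nd4l lay at 4176, 6079 and 4735 TPM in Ctrl and 7183, 6417 and 1646 in DPP3_KO with its copy. mt-Atp8 overlaps mt-Atp6 and has an entry of 204 bases. It lay at 18422, 22750 and 19172 TPM in Ctrl and at 29176, 30308 and 12017 in DPP3_KO. It alone made up 42.4 to 46.2% of the mitochondrially encoded TPM in 5 libraries and 30.2% in DPP3_KO replicate 3. The 13 genes took 4.35, 5.04 and 4.34% of TPM in Ctrl and 6.32, 6.63 and 3.98% in DPP3_KO, and the third DPP3_KO library was the lowest of all. With copies the share was 7.09, 7.88 and 7.15% in Ctrl and 10.2, 10.6 and 7.18% in DPP3_KO, and the groups overlapped. With copies and without mt-Atp8, a choice made after the values were seen, the share was 5.25, 5.60 and 5.24% in Ctrl and 7.26, 7.59 and 5.98% in DPP3_KO, and the groups did not overlap. The sum of the 13 genes differed by 0.27 on the log2 scale (exact permutation p = 0.4) and the mitochondrial to nuclear ratio by 0.24 (exact permutation p = 0.5). After median-of-ratios scaling the sum differed by 0.93 and the groups did not overlap (exact permutation p = 0.1). Without DPP3_KO replicate 3 the sum as deposited differed by 0.50 and the ratio by 0.53.

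Of the 98 genes, 14 did not overlap between groups with DPP3_KO above (2.73% of all genes) and 12 with DPP3_KO below (51.1%). Removal of a library ended many of the calls made with all 6 libraries, and each of those is given by library. As deposited, members not called with all 6 also passed, 1 without Ctrl replicate 3 and 2 without DPP3_KO replicate 3. No member was called without Ctrl replicate 1, where limma called 1 gene of all higher and 18 lower, or without Ctrl replicate 2, where it called 4 and 71. Cox6a2 and Cox7a1 passed when any of the other 4 libraries was left out, and their adjusted p without Ctrl replicate 1 was 0.0583 for both and without Ctrl replicate 2 was 0.0785 and 0.0839. Cox8b passed only without Ctrl replicate 3 or DPP3_KO replicate 2 (adjusted p = 0.0557 to 0.0912 without the others). Ndufs8 passed only without those same libraries (0.0571 to 0.103 without the others), and Ndufa9 only without Ctrl replicate 3 (adjusted p = 0.0422). mt-Nd6 passed in none of the 6, with adjusted p from 0.0501 to 0.164. After scaling, the fits without Ctrl replicates 1 to 3 called 18, 41 and 47 of all genes higher. Those without DPP3_KO replicates 1 to 3 called 173, 4 and 48, beside 304 with all 6 libraries. Of the 9 called after scaling, Cox6a2 passed in all but the fit without DPP3_KO replicate 2 (adjusted p = 0.0584). Cox7a1 and Atp5mpl passed only without DPP3_KO replicate 1 (adjusted p = 0.0324 and 0.0479), and Cox8b, mt-Nd1, Ndufa5, Uqcrh, Atp5g1 and Atp5md in none of the 6.

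The genes around the chain were read from lists chosen with earlier results known, and none held a gene higher as deposited by limma. At an unadjusted limma p below 0.05, 1 was higher and 50 were lower, beside 7865 of all 15650 genes in either direction. The counts of lower genes below stand beside 34.0% of all genes. Of 52 assembly factors, 8 fell and 0 rose, with a median log2 change of -0.36, and of 29 genes of mitochondrial DNA expression 4 fell (Slirp, Pnpt1, Mtpap and Tbrg4) with a median of -0.45. Coa5 and Tmem242 had the smallest p among the assembly factors, at -0.94 (adjusted p = 0.0168) and -0.79 (adjusted p = 0.0217). Of 15 regulators of mitochondrial biogenesis 8 fell, with a median of -0.66, among them Nrf1, the nuclear respiratory factor, at -0.85 (adjusted p = 0.0301). Pprc1 and Ppard had the smallest p there (-1.10 and -0.90, adjusted p = 0.0153 and 0.0169). Of 19 mobile electron carrier genes 3 fell (Gpd2, Sqor and Coq2) and of 20 tricarboxylic acid cycle genes 1 (Idh3g, -0.75, adjusted p = 0.0171), with medians of -0.33 and -0.39; Dlst had the next smallest p of the latter. Of 14 hypoxia genes 5 fell, with a median of -0.28. They were Hif1a, Epas1, Lonp1, Bnip3l and Vegfa. Epas1 lay at 643, 735 and 758 TPM in Ctrl and 403, 271 and 258 in DPP3_KO. After median-of-ratios scaling 0 of the genes of these lists were lower by limma, and Coq8a (1.38, adjusted p = 0.0403) and Mpc1 (1.05, adjusted p = 0.0304) were higher, against 1.94% of all genes. At an unadjusted limma p below 0.05, 30 were higher on that scale and 3 lower, beside 3617 of all 15650 genes in either direction. The medians of the 6 lists were then 0.22, 0.11, -0.16, 0.28, 0.24 and 0.22, against -0.02 for all genes and 0.63 for the subunits. Once trends with gene length were taken out as well, the list medians were 0.08, 0.04, -0.12, 0.19, 0.24 and 0.24, against -0.02 and 0.33.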

How the data were processed

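Lung RNA of 3 Ctrl and 3 DPP3_KO libraries had been made into TruSeq libraries from total RNA, per the labels' protocols. The authors deposited TPM for 56980 mouse genes. The submitters' processing notes name HISAT2, StringTie, RSEM and build GRCm39. Versions, annotation, strand setting and how reads of the human tumour cells were handled were not given in the sources used here. TPM keeps no depth, so no interval or floor is given. Groups and replicate numbers came from the titles.

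Values were changed to log2(TPM + 1), which understates changes of low genes, and genes averaging at least 1 TPM (15650) entered a limma 3.58.1 fit under R 4.3.3 (lmFit, eBayes with an intensity trend, two-sided, Benjamini-Hochberg over all 15650 genes, threshold 0.05). Summed TPM and ratios per library were compared by exact permutation with SciPy 1.17.1 in Python 3.11.15, over 20 regroupings. Copies were found with blastn 2.17.0 between 13575 pseudogene transcripts of GENCODE M21 and the coding transcripts of 100 members, at an identity of at least 90% over at least 50% of the pseudogene; 121 copies of 48 members were found, 16 of them outside the member list with a mean of at least 1 TPM. Promoters came from RefSeq (GRCm38.p6), of which 69 matched. Alternatives were 2 pseudocounts, 2 filters, 5 scalings, limma without the trend, the replicate number as a block and each library left out. Adding copies was chosen after seeing the data. The fit was tested on simulated data.

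The members, lists and tests were chosen with earlier results of these data known. Named genes were all mitochondrially encoded genes, all Cox4 to Cox8 genes with Ndufa4 and Ndufa4l2, all called genes, the extremes and most abundant gene of each nuclear complex, genes at 0, in each other pathway list the 2 genes with the smallest p, and defining markers of cell lists that moved with a result. Genes named beyond this rule, including Ndufb4c, the pseudogene copies, Pvalb, Tnnt3, Zic1, Ucp1, Cidea, Kcnk3, Lmod1 and Synpo2, were chosen after their values were seen.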

Additional observations from a re-analysis of the deposited data

Results flagged for a closer look

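Several pseudogene entries with near-identical sequence to a subunit gene, which the comparisons above use only when added to their gene, held a signal whose DPP3_KO libraries all lay above the Ctrl libraries. The copies at a mean of at least 1 TPM numbered 16, of which 6 were in this state, beside 2.73% of all genes, and 0 in the reverse, beside 51.1%. Gm10221, a copy of Atp5l, stood 2.71-fold higher in DPP3_KO than in Ctrl (log2 change 1.42, limma adjusted p = 0.0194). Gm28438, the copy of mt-Nd3, stood 2.50-fold higher (1.35, adjusted p = 0.0176), and Gm12338, a copy of Cox7c, 1.80-fold (0.84, adjusted p = 0.0332). Gm28437, Gm28661 and Gm10925, the copies of mt-Co3, mt-Co2 and mt-Atp6, stood at 1.43-fold, 1.34-fold and 1.12-fold, and none of these 3 passed. Gene and copies together stood at 1.22-fold for Atp5l, where the groups overlapped. The joint level was 1.73-fold for mt-Nd3 and 1.28-fold for Cox7c, with every DPP3_KO above every Ctrl library. On its own entry mt-Nd3 stood at 0.64-fold and the groups overlapped. Whether the reads came from the gene or from its copy was not tested.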

How the results depend on the processing

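Median-of-ratios scaling gave 9 members higher and 0 lower, beside 304 and 139 of all 15650 genes, and a median log2 change of 0.63. Quantile normalization gave 9 and 0, beside 321 and 144 of all genes, and a median of 0.37. With Scgb1a1 removed and the rest rescaled, 3 were higher and 0 lower, beside 145 and 423 of all genes. The median was then 0.28, against -0.33 for all genes. With the length trend removed, 4 were higher and 0 lower, beside 181 and 96, and the median was 0.33. Without mitochondrially encoded and haemoglobin genes 1 was lower, without the limma trend 1, without a filter 2 were higher and 1 lower, and with a mean of at least 5 TPM 4 were lower. With the replicate block 3 were higher and 1 lower, beside 212 and 4734 of all genes. After scaling with the replicate block 1 was higher and 0 lower, beside 63 and 18, and the median was 0.63. Same-numbered libraries did not deviate together (correlations of 0.27, -0.21 and 0.14), so the numbers were not taken to pair samples. With copies added after scaling, 10 were higher and 0 lower, beside 304 and 139 of 15634 genes, and the median was 0.64.

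Leaving out each library gave 0 to 3 members higher and 0 to 3 lower as deposited, with a median of -0.12 to 0.04. After scaling it gave 0 to 3 higher and 0 lower. The medians were then 0.70, 0.60, 0.58, 0.63, 0.72 and 0.48 (without Ctrl replicates 1 to 3, then DPP3_KO replicates 1 to 3). Over all 15650 genes the same fits as deposited called 1, 4, 136, 146, 141 and 123 higher in that order. They called 18, 71, 4096, 3163, 4993 and 1596 lower. After scaling they called 18, 41, 47, 173, 4 and 48 higher and 15, 56, 25, 166, 3 and 15 lower. The nuclear sum ranged from -0.049 to 0.097 over those libraries, complex I from -0.16 to 0.013, complex IV from -0.0011 to 0.16, complex V from -0.015 to 0.11, the mitochondrially encoded sum from 0.14 to 0.50, its ratio to the nuclear sum from 0.078 to 0.53 and the ratio of Ndufa4l2 to Ndufa4 from -0.28 to 0.26. Averaging log2(TPM + 1) gave -0.050 for the nuclear members, -0.023 for complex III and -0.065 for complex V. The complex I sum turned to 0.60 after scaling, 0.43 with quantile normalization, 0.25 without Scgb1a1, 0.29 with the length trend removed and 0.60 with scaling and copies together; complex II turned to 0.38, 0.27, 0.025, 0.22 and 0.38 in the same order. Adding copies without scaling turned neither (-0.06 and -0.29). The mitochondrial to nuclear ratio was -0.058 with quantile normalization. Ndufa9 turned to 0.12 after scaling, also where scaling was joined with the replicate block or with copies, and to 0.072 with quantile normalization, and after scaling stood at 0.19, 0.11, 0.078, 0.071, 0.22 and 0.086 without each library in that order. Ndufs8 then stood at 0.042 without Ctrl replicate 1 and at 0.0019 without DPP3_KO replicate 2. mt-Nd3 turned to 0.78 with its copy, and 1.44 after scaling too. The cause of these changes was not tested. With 3 libraries a group, permutation tests cannot go below p = 0.1, and TPM without depth gives no counting error.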
